A study of Mus musculus with 6 samples.

Results

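The genes described here drive and carry out cell division: cyclins and their kinases, factors that license and copy DNA, and proteins of mitosis. The list of 36 genes was matched to array probes through the RefSeq transcript accession that each probe carries. Probes were found for 34 of the 36, out of 13971 named genes in all. Mki67 and Bub1 had no probe named in this way. Gene expression was measured on 1-colour oligonucleotide arrays in livers of C57BL/6 mice aged 14 months, 3 wild-type mice (replicates 1, 2 and 4) and 3 Src-transgenic mice (replicates 1, 3 and 4). The transgenic mice carried the human gene for Src, a tyrosine kinase of growth signalling, under the mouse metallothionein promoter. That promoter is induced by zinc and is active in many tissues, so it does not limit the transgene to hepatocytes. Whether these mice received zinc is not given. The study looked for genes that act after Src in liver carcinogenesis, in a strain of which some old animals bear liver tumours, and whether a sampled piece contained tumour is not given either. The submitters left 1 further array of each group out for very low signal. The titles number the mice and nothing gives litters or extraction days, so p-values measure only the spread between these samples.

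Most hepatocytes of an adult liver rest outside the cell cycle and can re-enter it after injury or loss of tissue. Growth signals raise the D cyclins, which with Cdk4 inactivate the retinoblastoma protein and free E2F factors, and E2F factors switch on genes for origin licensing, DNA synthesis and nucleotide supply. Later in the cycle the MuvB complex, with B-Myb and Foxm1, switches on the genes of G2 and mitosis through a promoter element called the cell cycle genes homology region, or CHR. NF-Y, which binds the letters CCAAT, often acts beside it. Bulk arrays average over all cells of a liver piece, so fewer cells of a type and less RNA per cell cannot be told apart.

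Some promoters of these genes carry letters that go with that division of labour, shown here for a pair of genes of each kind whose values are given further on. RefSeq promoters (GRCm38.p6, 250 bases before to 50 after the annotated start) were found for 27 of the 34 genes, as 29 promoters. Both strands were searched for E2F-type letters (TTCGCGC and also TTGGCGC and also TTCCCGC), for CHR-type letters (TTTGAA or else TTCGAA) and for the NF-Y-type CCAAT. In the sequences below capitals mark every match, and a run of capitals longer than its motif holds matches that share bases.
Ccnb2 promoter (GRCm38.p6, chr9:70421505-70421804, minus strand): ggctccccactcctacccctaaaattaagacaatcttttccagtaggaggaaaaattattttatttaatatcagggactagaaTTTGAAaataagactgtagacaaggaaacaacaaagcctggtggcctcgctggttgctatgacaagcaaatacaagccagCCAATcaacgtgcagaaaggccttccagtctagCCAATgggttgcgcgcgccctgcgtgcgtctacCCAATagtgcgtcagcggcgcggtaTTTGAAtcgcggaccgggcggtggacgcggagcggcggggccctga
Cdk1 promoter (GRCm38.p6, chr10:69352863-69353162, minus strand): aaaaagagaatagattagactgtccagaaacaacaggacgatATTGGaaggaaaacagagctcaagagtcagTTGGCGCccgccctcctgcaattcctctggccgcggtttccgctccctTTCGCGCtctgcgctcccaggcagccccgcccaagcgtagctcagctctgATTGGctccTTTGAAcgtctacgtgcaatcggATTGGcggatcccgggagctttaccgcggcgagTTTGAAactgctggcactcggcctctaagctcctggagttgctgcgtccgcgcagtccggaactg
Mcm5 promoter (GRCm38.p6, chr8:75109259-75109558, plus strand): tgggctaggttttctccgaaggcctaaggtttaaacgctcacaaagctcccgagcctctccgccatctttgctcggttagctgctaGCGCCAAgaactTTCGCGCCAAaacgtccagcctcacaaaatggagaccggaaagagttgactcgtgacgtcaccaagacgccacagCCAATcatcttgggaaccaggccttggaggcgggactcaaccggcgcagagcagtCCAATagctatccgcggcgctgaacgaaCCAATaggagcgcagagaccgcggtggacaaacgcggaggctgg
Mcm6 promoter (GRCm38.p6, chr1:128359656-128359955, minus strand): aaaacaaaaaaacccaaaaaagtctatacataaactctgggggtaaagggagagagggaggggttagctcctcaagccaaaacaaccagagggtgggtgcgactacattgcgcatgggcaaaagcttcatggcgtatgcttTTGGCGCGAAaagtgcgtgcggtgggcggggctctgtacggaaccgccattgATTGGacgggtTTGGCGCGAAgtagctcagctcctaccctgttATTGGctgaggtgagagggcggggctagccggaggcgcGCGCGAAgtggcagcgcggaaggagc

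In the Ccnb2 promoter the 3 NF-Y-type matches began at -87, -54 and -21 from the start, 33 bases apart each, and CHR-type matches began at -167 and 4. The Cdk1 promoter held 2 CHR-type matches, at -71 and -15, and 2 E2F-type matches farther out. The Mcm5 and Mcm6 promoters held 3 and 5 E2F-type matches, with 1 and 2 overlapping pairs among them, and 0 of the CHR type. Not every gene followed its kind. E2f1, Ccne1, Cdk4, Ccnd3, Tk1, Tyms, Pcna, Rrm2 and Mcm2 held 0 E2F-type matches, and Mcm2 and 1 Mcm7 promoter held a CHR-type match. The mitotic Ccnb1 held 1 of the E2F type and 0 of the CHR type, and Birc5 held 0 of all 3 types. Across the list, 10 of 20 promoters of G1 and S phase genes held an E2F-type match, against 2 of 9 of G2 and mitotic genes (22.2%) and 8.07% of all 32851 promoters. For the CHR type the shares were 2 of 20, 7 of 9 (77.8%) and 19.2%. NF-Y-type letters stood in 11 of 20, 8 of 9 (88.9%) and 37.4%. These are matches of letters in a fixed window and not measured binding sites.

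**Figure D1:**
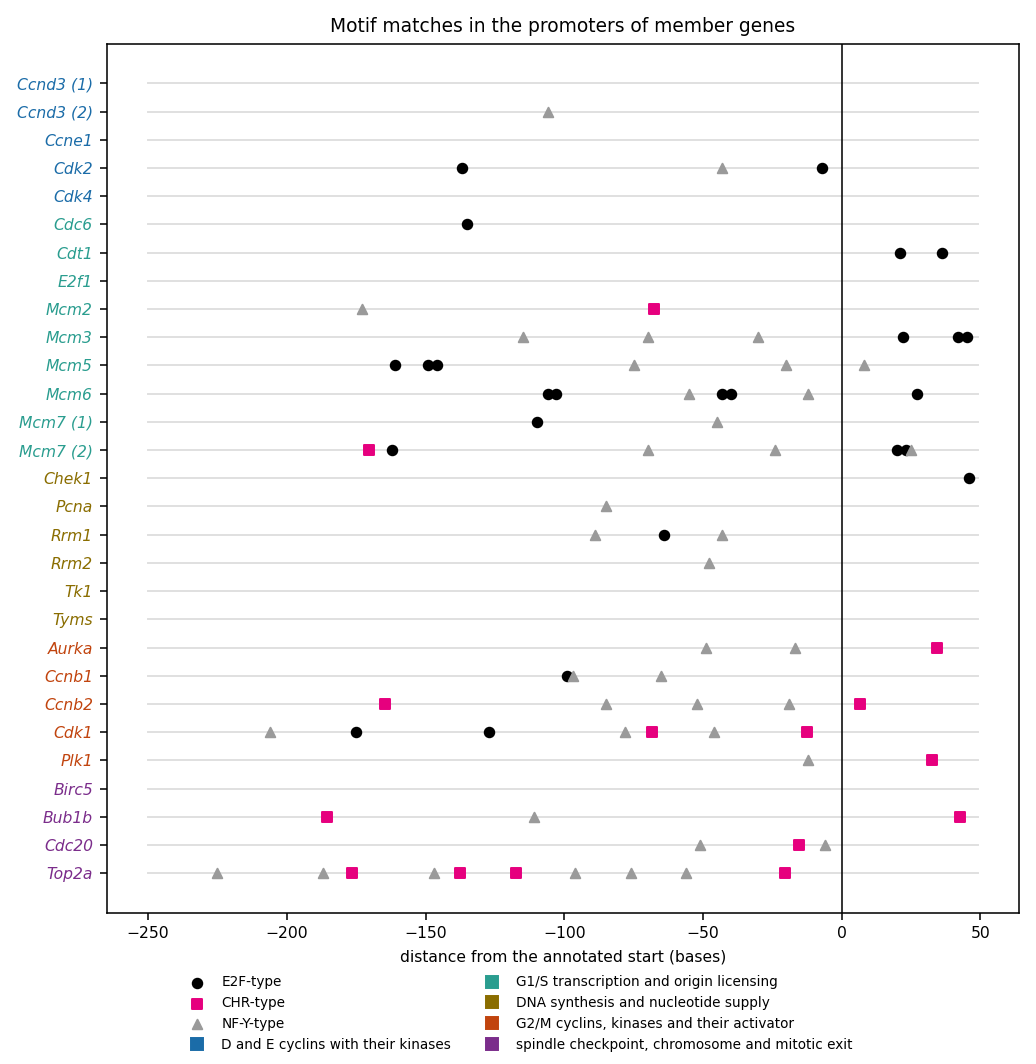
Positions of E2F-type (circles), CHR-type (squares) and NF-Y-type (triangles) letter matches in the 29 promoters, in bases from the annotated start on the x axis, with gene names coloured by role. CHR-type squares stand in 7 of the 9 promoters of the G2 and mitotic genes at the bottom and in 2 of the 20 above them.

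The arrays differed among themselves. The median signal of the 34967 mouse probes ran from 53.8 to 117, with the 3 transgenic arrays the brightest before normalisation. Between 62.6% and 71.7% of probes lay above background, a level set from bacterial control spots. Areas of unusual brightness, called patches here, held 0.73% to 7.55% of the probes of an array and touched 3 of the 34 genes, Ccne2 and Aurka on 1 transgenic array each and Mcm6 on wild-type replicate 4. Transgenic replicate 4 stood apart on Y-linked genes, with Uty, Ddx3y and Eif2s3y above background on the other 5 arrays but not on it, while Kdm5d was above background on all 6. The labels give no sex. As a check of the labels, the mouse Src probe read 7.71 to 9.67 on the transgenic arrays and 6.62 to 7.21 on the wild-type arrays (normalised log2 signal). Whether that probe reads the human transcript is unknown, and the difference of 1.79 ± 0.51 (SE) was not called (limma adjusted p = 0.69).

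No cell cycle gene passed the test between the genotypes. At a limma adjusted p under 0.05, 0 of the 34 genes were called, and over all 34175 features (13971 named genes and 20204 unnamed probes) the share called was 0%. At an unadjusted p under 0.05 there were again 0 of 34, where 7.09% of all features passed, 4.37% higher and 2.72% lower. That split over all features, 1493 higher and 931 lower, turned to 943 and 1312 with median scaling. Adjusted p-values of the 34 genes ran from 0.69 to 1.00. Values were positive for 12 genes and negative for 22, with a median log2 change (transgenic minus wild-type) of -0.08, beside 0.02 over all features. Over the 13971 named genes alone the median was -0.02, with 52.3% negative. The split of 12 and 22 was the same with median scaling, 75th percentile scaling and the authors' own scaling. The medians of the 34 genes were then -0.13, -0.11 and -0.13, and those over all features fell as well, to -0.08, -0.06 and -0.08. The split rested in part on wild-type replicate 1, the array on which 12 of the 34 genes and 25.9% of all features read highest. Without that array 16 values were positive and 18 negative, with a median of -0.01 beside 0.05 over all features, while leaving out wild-type replicate 2 or 4 alone gave medians of -0.16 and -0.15. Taking each gene relative to its wild-type mean, the median over the 34 genes was 0.21, -0.06 and -0.18 on wild-type replicates 1, 2 and 4 and -0.02, -0.20 and -0.16 on transgenic replicates 1, 3 and 4. Transgenic replicate 3 thus lay just under the wild-type range and the other two within it. A log2 change beyond 1 either way was seen for 4 of 34 genes (Ccne2, Mcm2, Rrm1 and Ccnb2), where 8.61% of all features had one.

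The precision differed between genes. The limma 95% interval of the log2 change included 0 for all 34 genes. For 16 genes it lay within 1 on either side, so these data leave room for changes of less than 2-fold in them. For the other 18 the interval reached past 1, so a 2-fold change lies within it. Of the 34 genes, 18 were above background on all 6 arrays, 11 on some and 5 on none. Those 5, which were Ccnb1, Plk1, Aurka, Top2a and Cdc20, all act in G2 or mitosis, and their levels have only an upper bound. Among the 18 measured on every array, 13 values were negative (72.2%) and the median was -0.09. Over all features above background on every array 49.1% were negative, with a median of 0.0065. Relative to wild-type means, the median over the 18 genes was 0.22 on wild-type replicate 1 and below 0 on every other array. No change of the 18 exceeded 1 either way, which 3.17% of all features above background on every array did.

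**Figure D2:**
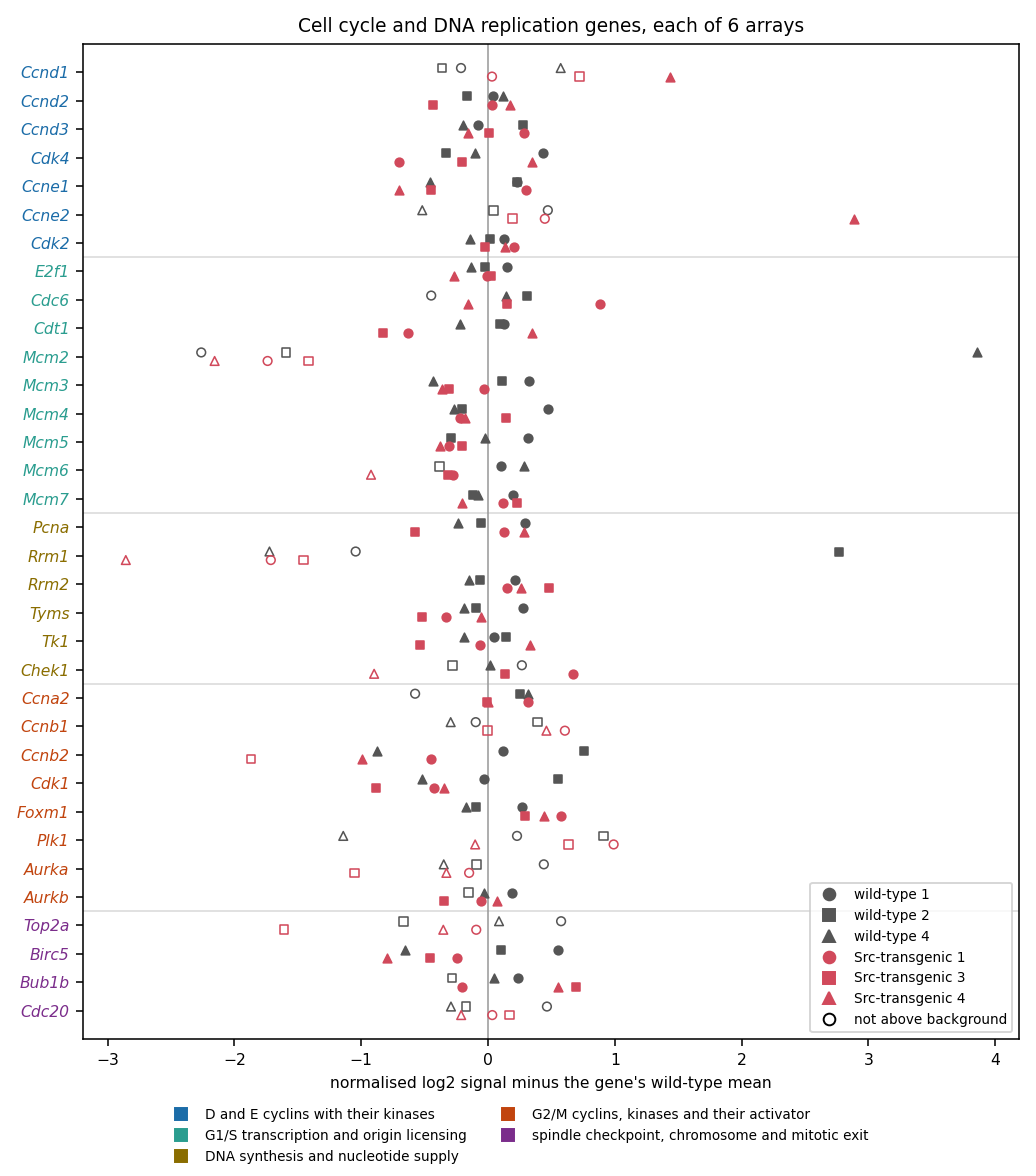
Normalised log2 signal of each gene on each of the 6 arrays, relative to the gene's wild-type mean, with wild-type in grey and Src-transgenic in red and open symbols for values not above background. Wild-type and transgenic symbols overlap for 33 of 34 genes, and Mcm2, Rrm1 and Ccne2 each have 1 array far to the right.

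**Figure D3:**
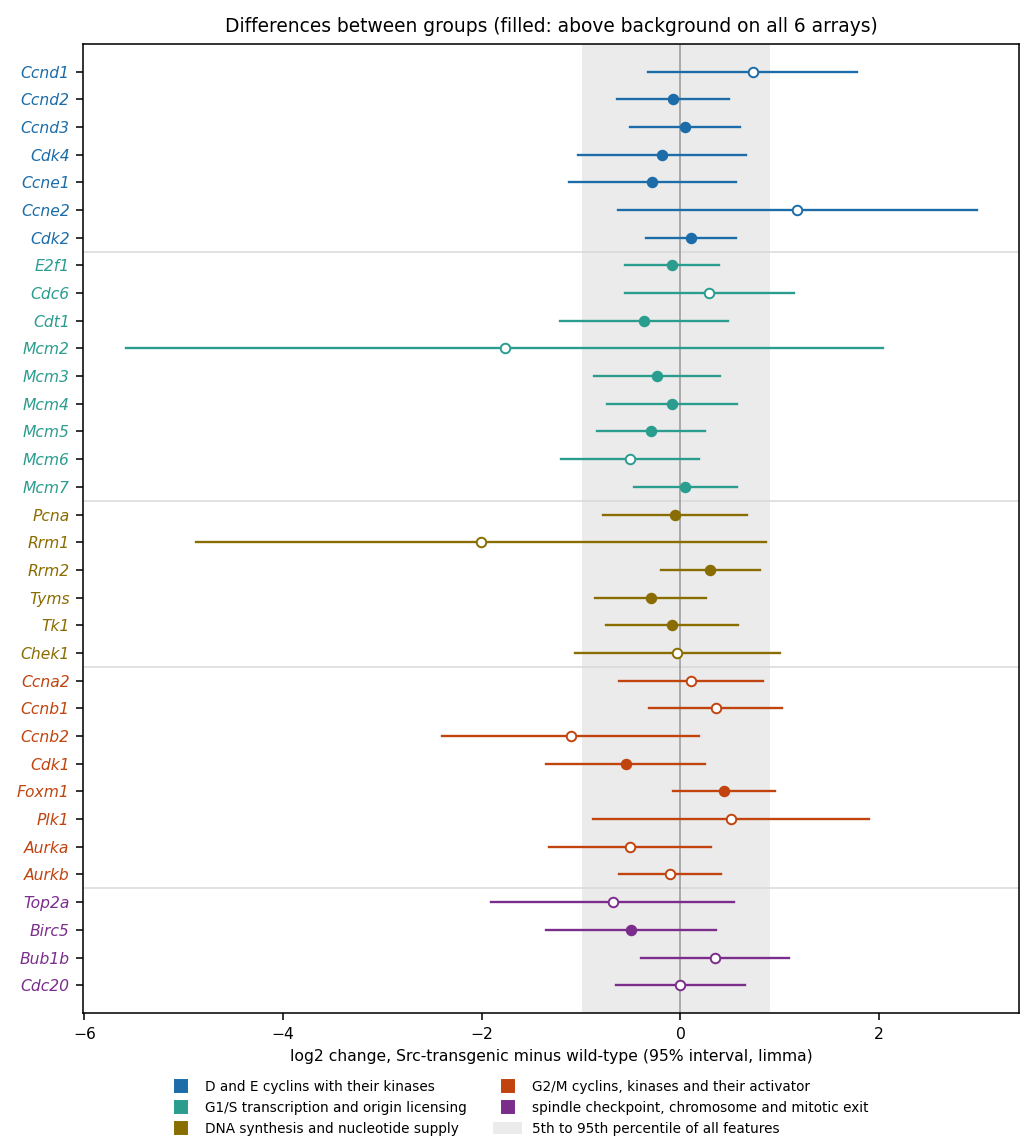
Log2 change of each gene (Src-transgenic minus wild-type) with its limma 95% interval, coloured by role and filled where the gene was above background on all 6 arrays, with the 5th to 95th percentile of all features in grey (-0.98 to 0.89). All 34 intervals cross 0, and Mcm2 and Rrm1 have the widest.

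The D and E cyclins and their kinases govern entry into the cycle. Of this role, 4 genes with small values were above background on all arrays: the D cyclins Ccnd2 (-0.08 ± 0.23) and Ccnd3 (0.05 ± 0.23), and the kinases Cdk4 (-0.19 ± 0.35) and Cdk2 (0.11 ± 0.19, SE in each case). Ccne1, the cyclin partner of Cdk2, had -0.28 ± 0.35. The probe of Ccnd1, the D cyclin that responds to growth signals in hepatocytes, read 3.74, 3.59 and 4.53 in wild-type and 3.99, 4.68 and 5.39 in transgenic livers. Only transgenic replicate 4, the highest value, was above background, and the groups overlapped. The levels of Ccnd1 therefore have only a bound in wild-type livers, and no fold is given. Ccne2 read 4.92, 4.50 and 3.93 in wild-type and 4.90, 4.64 and 7.33 in transgenic livers, so 2 of the 3 transgenic values lay inside the wild-type range. The high value, on transgenic replicate 4, lay in a patch. With the wild-type arrays raised to the lowest value called above background, Ccne2 was 1.05-fold higher in transgenic livers (limma adjusted p = 0.71). Transgenic replicates 1 and 3 entered at values not above background, so this is not a strict bound. The fitted log2 difference of measured signals was 1.17, or 0.32 without transgenic replicate 4 and 0.53 after local correction of patches.

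E2f1 and the licensing factors prepare origins for replication. E2f1, the activator of S phase genes, had a log2 change of -0.08 ± 0.20 (SE), with an interval of -0.56 to 0.39. Cdc6 and Cdt1 load the Mcm2-7 helicase onto origins, and they had 0.29 ± 0.35 and -0.37 ± 0.35. Cdt1 had -0.73 without transgenic replicate 4 and -0.14 without transgenic replicate 3. Without transgenic replicate 1 the value of Cdc6 was -0.0035. The subunits of the helicase work as 1 ring of 6 proteins, and 5 of the 6 had negative values. Without wild-type replicate 4 this was 4 of the 6, as Mcm2 turned to 0.16. Mcm5 read 6.30, 5.70 and 5.96 in wild-type and 5.68, 5.79 and 5.62 in transgenic livers, a log2 change of -0.30 ± 0.22. With single arrays left out it ran from -0.44 to -0.14, the latter without wild-type replicate 1. Mcm6 read 5.99, 5.50 and 6.17 and then 5.61, 5.57 and 4.96, a change of -0.51 ± 0.29 that was -0.26 after local correction. With single arrays left out it ran from -0.70 to -0.30, the latter without transgenic replicate 4. On wild-type replicate 2 and transgenic replicate 4 Mcm6 was not above background. The promoters of Mcm5 and Mcm6 are printed above, and for both genes the groups overlapped. Mcm3 had -0.23 ± 0.26, Mcm4 -0.09 ± 0.27 and Mcm7 0.05 ± 0.21. The median over the 9 genes of this role was -0.23, and it was -0.07 without wild-type replicate 1.

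Mcm2 gave the widest spread of any gene on the list. The probe read 3.64, 4.31 and 9.76 in wild-type and 4.16, 4.49 and 3.75 in transgenic livers. The signal before normalisation was 915 on wild-type replicate 4 and 10.7 to 27.2 on the other 5 arrays, where it was not above background. That spot lay outside the patches. With the transgenic arrays raised to the lowest value called above background, Mcm2 was 1.55-fold lower in transgenic livers (limma adjusted p = 0.77), from 1 wild-type array alone. Wild-type replicates 1 and 2 entered at values not above background, so this is not a strict bound. Without wild-type replicate 4 the fitted log2 difference of measured signals went from -1.77 to 0.16.

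Genes for DNA synthesis and nucleotide supply were among the better measured. Pcna, the sliding clamp of the replication fork, read 9.81, 9.47 and 9.28 in wild-type and 9.64, 8.95 and 9.81 in transgenic livers. The groups overlapped, with transgenic replicate 3 below all wild-type values. The log2 change was -0.05 ± 0.30 (SE), with an interval of -0.78 to 0.67. Rrm2, the small subunit of ribonucleotide reductase and the one that limits it in S phase, read 8.81, 8.53 and 8.44 and then 8.75, 9.07 and 8.86. Of the 3 transgenic values 2 lay above all wild-type values, and the change was 0.30 ± 0.21. Tyms, which makes thymidylate, had -0.30 ± 0.23, and Tk1, which salvages thymidine, had -0.09 ± 0.27. The other Tk1 probe gave -0.29 ± 0.26. Chek1, a checkpoint kinase of damaged or stalled forks, had -0.03 ± 0.43 and was above background on 3 of the 6 arrays. The large reductase subunit Rrm1 read 4.20, 8.01 and 3.52 in wild-type and 3.53, 3.78 and 2.38 in transgenic livers. It was above background on wild-type replicate 2 alone. With the transgenic arrays raised as for Mcm2, the wild-type mean was no longer the higher, so no fold is given. The fitted log2 difference of measured Rrm1 signals was -2.01 ± 1.18, and -0.63 without wild-type replicate 2.

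The genes of G2 and mitotic entry gave values in both directions. Foxm1, the transcription factor of G2 genes, read 6.49, 6.12 and 6.04 in wild-type and 6.79, 6.51 and 6.66 in transgenic livers. All 3 transgenic values lay above all 3 wild-type values, with 6.51 next to 6.49 at the border. Foxm1 was the only gene of the 34 whose groups did not overlap, where 16.0% of all features did not. The log2 change was 0.44 ± 0.21 (SE), or 1.35-fold, and did not pass (limma adjusted p = 0.69). A two-sided exact permutation test on Foxm1 gave p = 0.1, the smallest that 3 against 3 allows. Leaving out single arrays gave 0.35 to 0.57.

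Ccnb2, a cyclin of Cdk1 and a known target of this program, pointed the other way. It read 6.72, 7.35 and 5.72 in wild-type and 6.15, 4.73 and 5.60 in transgenic livers, where it was above background on 2 of 3 arrays. The groups overlapped, and the log2 change was -1.10 ± 0.53 (SE), or 2.15-fold lower, with an interval of -2.40 to 0.19 (limma adjusted p = 0.69). Leaving out wild-type replicate 2 or transgenic replicate 3 brought it to -0.72, and leaving out wild-type replicate 4 to -1.54. Cdk1, the mitotic kinase, read 7.06, 7.64 and 6.57 and then 6.67, 6.21 and 6.75, a change of -0.55 ± 0.33. Leaving out single arrays gave Cdk1 -0.81 to -0.27, the latter without wild-type replicate 2. Ccnb2 and Cdk1, whose promoters are printed above, were both highest on wild-type replicate 2 and lowest on transgenic replicate 3. Ccna2, the cyclin of S phase and G2, had 0.10 ± 0.30, and Aurkb, a kinase of chromosome attachment, had -0.11 ± 0.21. Ccnb1, the other B cyclin, read 4.21 to 4.89 in wild-type and 4.50 to 5.11 in transgenic livers. The mitotic kinase Plk1 read 2.68 to 4.73 and 3.72 to 4.81, and Aurka, a kinase of the spindle poles, 4.28 to 5.07 and 3.58 to 4.48. None of these 3 was above background on any array, so no fold is given.

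Genes of the spindle checkpoint, chromosome structure and mitotic exit were dim. Top2a, which untangles sister chromatids, read 4.57, 3.33 and 4.08 in wild-type and 3.90, 2.38 and 3.64 in transgenic livers and was above background on no array. The lowest value, on transgenic replicate 3, had been raised to the floor. Birc5, the chromosomal passenger protein survivin, read 6.89, 6.44 and 5.69 and then 6.10, 5.89 and 5.54, above background on every array. Its log2 change was -0.50 ± 0.35 (SE) and moved to -0.22 without wild-type replicate 1 and to -0.82 without wild-type replicate 4. Bub1b, a checkpoint kinase, read 5.77, 5.25 and 5.57 and then 5.32, 6.22 and 6.08, a change of 0.35 ± 0.31 that was 0.62 without transgenic replicate 1 and 0.17 without transgenic replicate 3. Cdc20, which activates the anaphase-promoting complex, read 4.11 to 4.86 in wild-type and 4.19 to 4.57 in transgenic livers, above background on none.

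Single arrays decided several of these values. Mcm2, Rrm1 and Ccne2 each had 1 array more than 2 log2 units above the next, on wild-type replicates 4 and 2 and on transgenic replicate 4. These are 3 of 34 genes, and 6.51% of all features show such a gap, a limit chosen after the values were seen. The median log2 change of the other 31 genes was -0.08. Smaller values moved as well. Ccne1 ran from -0.57 without transgenic replicate 1 to -0.07 without transgenic replicate 4, and Mcm3 from -0.45 without wild-type replicate 4 to -0.07 without wild-type replicate 1. At an unadjusted p under 0.05, leaving out wild-type replicate 4 gave 3 genes, Ccnb2, Cdk1 and Birc5, all lower. In that fit 1560 of all 34175 features were higher at that limit and 1331 lower. Leaving out wild-type replicate 1 gave Foxm1, transgenic replicate 1 gave Ccnd1 and transgenic replicate 4 gave Cdt1. Over all features those fits gave, in the same order, 1056, 1263 and 953 higher and 777, 773 and 769 lower. The lowest limma adjusted p of the 34 genes in these fits was 0.57.

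**Figure D4:**
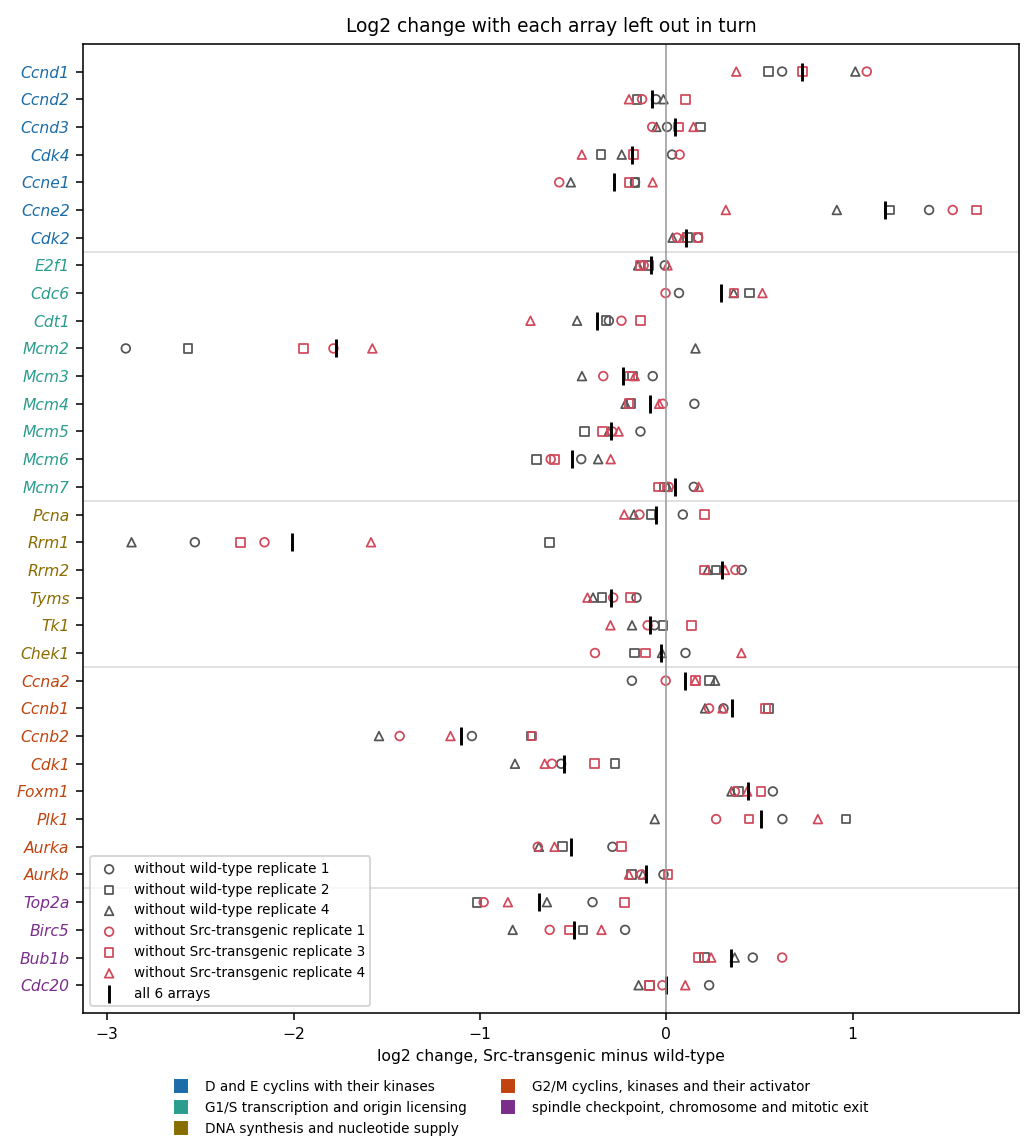
Log2 change of each gene with all 6 arrays (black bar) and with each array left out in turn (open symbols, grey for wild-type and red for Src-transgenic). Mcm2 moves from -1.77 to 0.16 and Rrm1 from -2.01 to -0.63 when 1 wild-type array is removed, while Foxm1 stays between 0.35 and 0.57.

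Other genes of the same machinery were read from 7 lists, with 126 of 145 genes on the array. At a limma adjusted p under 0.05, 0 of the 126 were called. Unadjusted limma p-values under 0.05 were found for 4 with higher and 6 with lower values, where 4.37% and 2.72% of all features had them. Groups were free of overlap for 9 genes with higher (7.14%) and 12 with lower values (9.52%), where the shares over all features were 10.1% and 5.90%. Values were negative for 77 of 126, with a median of -0.13, and the median was -0.0022 without wild-type replicate 1.

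The genes of origin recognition and firing, which act beside the Mcm2-7 ring, had negative values for 12 of 13, with a median log2 change of -0.41. Among all features 48.3% were negative, and among all named genes 52.3%. The median was -0.26 without wild-type replicate 1, with 11 of 13 negative, and -0.26 after local correction of patches. Mcm10, which helps to open the loaded helicase, read 11.2, 11.1 and 11.4 in wild-type and 10.2, 10.9 and 10.1 in transgenic livers. All transgenic values lay below all wild-type values, the log2 change was -0.83 ± 0.27 (SE), and the unadjusted limma p of 0.020 gave an adjusted p of 0.69. Mcm10 lay in a patch on wild-type replicate 4, and local correction brought it to -0.45. The origin recognition subunit Orc2 was above background on 2 wild-type arrays and no transgenic array. With the transgenic arrays raised to the lowest value called above background it was 1.81-fold lower (limma adjusted p = 0.69), not a strict bound. Cdc7, the kinase that fires origins, went the other way with 0.69 ± 0.27, above every wild-type value and in a patch on transgenic replicate 3.

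Replicative polymerase and fork genes had 16 of 26 negative values and a median of -0.24. Without wild-type replicate 1 these became 13 of 26 and 0.0030. Pold1, the catalytic subunit of polymerase delta, read 5.38, 7.65 and 7.98 in wild-type and 4.50, 2.38 and 4.40 in transgenic livers. With the transgenic arrays raised to the lowest value called above background it was 3.33-fold lower (limma adjusted p = 0.69). Wild-type replicate 1 entered at a value not above background, so this is not a strict bound. Pold1 lay in a patch on 3 of the 6 arrays. Pola2, a subunit of the primase-polymerase complex, had -0.55 ± 0.21 (SE), with groups that did not overlap, and lay in no patch. Dna2, a nuclease of flap processing, had -0.66 ± 0.35. Among pocket proteins and other E2F factors 9 of 12 values were negative, with a median of -0.19, but without wild-type replicate 1 only 5 of 12 were, with a median of 0.13. Among them were Rbl2 at -0.42 ± 0.22, Rb1, the retinoblastoma gene, at -0.42 ± 0.27 and E2f6 at 0.38 ± 0.26.

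Among the CDK inhibitors, Cdkn1a encodes p21. It read 5.96, 4.69 and 5.18 in wild-type and 9.33, 7.70 and 5.45 in transgenic livers, above background on 1 and on 3 arrays. The 1 wild-type value above background, on replicate 1, lay in a patch, so the wild-type level is poorly measured. Transgenic replicate 4 lay inside the wild-type range and the groups overlapped. The fitted log2 difference of measured signals was 2.22 ± 0.96 (SE), and 1.30 without transgenic replicate 1 and 3.24 without transgenic replicate 4 (limma adjusted p = 0.69 with all arrays). The INK4 genes Cdkn2b and Cdkn2a had 0.23 ± 0.25 and -0.27 ± 0.33. In this list 4 of 6 values were positive and 2 negative, and without wild-type replicate 4 these counts turned to 2 and 4.

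Spindle, kinetochore and cytokinesis genes divided evenly, with 17 of 32 negative and a median of -0.03, or 19 of 32 and -0.11 with median scaling. Cep55, of the final cut between daughter cells, read 6.42 to 6.75 in wild-type and 6.91 to 7.51 in transgenic livers, a log2 change of 0.61 ± 0.23 (SE) with groups that did not overlap. Kif23 and Ttk had unadjusted limma p-values of 0.013 and 0.045 but were above background on no array, so no fold is given. Among the regulators around Cdc25 and the anaphase-promoting complex 13 of 22 were negative, and 11 of 22 without wild-type replicate 4 or transgenic replicate 4. Pkmyt1, which restrains Cdk1, was above background on all 3 transgenic arrays and no wild-type array, at least 1.24-fold higher (limma adjusted p = 0.69), and lay in a patch on transgenic replicate 4. Cdkl1 read 3.61 to 3.85 in wild-type and 4.12 to 5.53 in transgenic livers, with 1 array above background. Pttg1, which encodes securin, was above background on none. Of the condensin, cohesin and chromatin assembly genes 8 of 15 were negative. That count was 11 with median scaling, without wild-type replicate 4 or without transgenic replicate 4, and it was 4 without wild-type replicate 1. In this list were the condensin gene Smc2 at 0.49 ± 0.22 and Ncapg2 at -0.48 ± 0.34, while Smc3 was above background on no array.

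**Figure D5:**
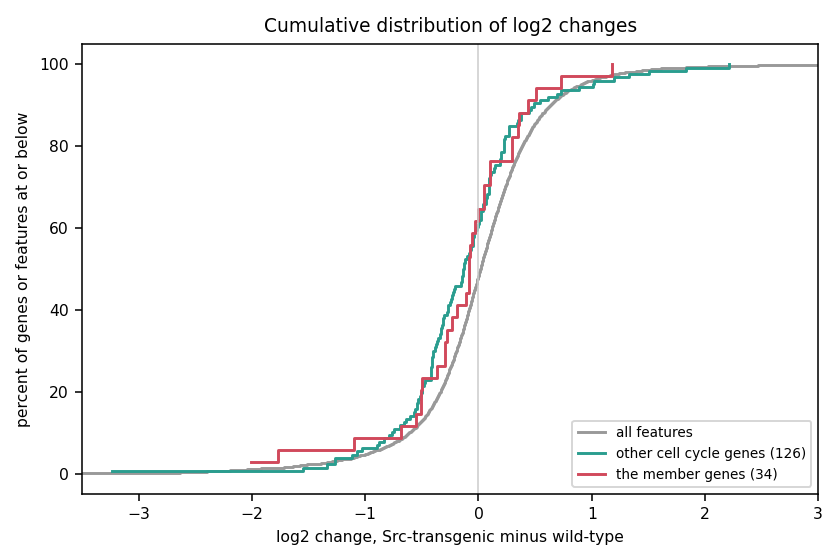
Cumulative percent of genes or features at or below each log2 change (Src-transgenic minus wild-type) for the 34 listed genes, the 126 other cell cycle genes and all 34175 features. The medians are -0.08, -0.13 and 0.02, so around the middle both gene curves run to the left of the grey curve, and the curves meet or cross at the ends. The median over all named genes, which have no curve of their own, is -0.02.

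Markers of the cells in the tissue were read beside these values. Hepatocyte markers were above background on all arrays for 7 of 7 genes, and their summed normalised signal was 139511 to 152083 in wild-type and 138932 to 150883 in transgenic livers. The brightest of them, such as Alb and Apoa1, lay at the top of each array, where quantile normalisation gives all arrays the same set of values. These sums therefore say little about hepatocyte content. Markers of T, B and NK cells, which could bring dividing cells with them, had 8 of 11 negative values, with sums of 1862 to 2183 and 1745 to 2591. Kupffer cell and macrophage markers had 5 of 6 positive values, with sums of 4636 to 5476 and 4507 to 8677. All 6 read highest on transgenic replicate 4. Without that array Marco had -0.38, Clec4f -0.33, C1qa -0.25, Vsig4 -0.088 and Cd5l -0.086, while Lyz2 stayed positive. Endothelial markers had 5 of 6 negative values (sums 2875 to 3687 and 2581 to 3341), and stellate cell and matrix markers 6 of 8 (3033 to 4261 and 3072 to 4380). For cholangiocytes 3 of 5 were negative (925 to 1255 and 930 to 1362), for red cells 3 of 5 (12627 to 20937 and 15770 to 24825) and for neutrophils 3 of 6 (416 to 819 and 556 to 919). Of the markers, Col1a2 of stellate cells and Mpo and Camp of neutrophils were above background on no array. The ranges of the groups overlapped in each list, and the part of these cells in the values above was not tested.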

How the data were processed

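RNA of 6 livers was amplified linearly into biotinylated cRNA and read with a single dye, per the labels' protocols. The deposited intensity of a spot was its signal after background was taken out, and a second intensity column divided it by 1 constant per array, per the file headers. For all 34967 mouse probes the deposited value table gave this scaled intensity again (difference at most 1e-06), linear and not centred, with medians of 0.998 to 0.999 per array. The make of scanner and the image software were not found in the labels or headers.

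The 620 spots of bacterial controls were left out. On each array, lower signals were raised to a floor, percentile 1 of the signals over 0 (4.72 to 5.75), log2 values were quantile normalised, and no normexp correction was made. RefSeq accessions without version (GRCm38.p6) named 14763 probes. The probe with the highest mean stood for a gene. Above background means a signal over 33.0 to 50.6, depending on the array (570 dim control spots, median and 3 scaled MADs). A patch is where the median deviation of spots within 4 rows and columns exceeds 0.5. In an "at least" fold, or a fold with arrays raised, the brighter group's mean is set against the dim group. Each dim array is first raised to the lowest value called above background there. Arrays of the brighter group that are not above background enter at their measured values, and the fold is then not a strict bound.

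The comparison used limma 3.58.1 under R 4.3.3 with lmFit and eBayes, two-sided, and Benjamini-Hochberg adjustment over 34175 features. SE and interval are limma's moderated ones. The steps were tested on simulated data. The genes, lists and rules were chosen with earlier results of these data known. Values on every array are given for Top2a, Cdk1, Ccnd1, Pcna, Mcm2, for genes past an unadjusted p of 0.05, for those whose groups do not overlap and that are measured in a group, and for the 3 largest changes each way among genes measured in a group. From each further list up to 3 genes with the smallest p are named. Rrm1, Ccne2, Mcm5 and Mcm6 were added after their values were seen. The number of arrays limits the precision.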

Additional observations from a re-analysis of the deposited data

How the results depend on the processing

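The comparison was refitted under 19 alternatives. Over all 34 genes and the 126 further genes, 0 were called under any of them. Over all features 0 to 1 was called when single arrays were left out, without wild-type replicate 1 or transgenic replicate 4. At an unadjusted p under 0.05 the listed genes numbered 0 to 3 with single arrays left out and 2 (Ccne2 and Foxm1) after local correction of patches. After that correction 1235 of all features were higher at that limit and 1357 lower. The further genes at that limit numbered 10 of 126. They numbered 5 with either filter on dim probes, which left 95 and 82 genes, and 4 outside patches, which left 97. Local correction gave 6, the replicate block 6 and single arrays left out 4 to 9 (4 without transgenic replicate 3, 6 without wild-type replicate 1 or transgenic replicate 1). Over all 34175 features, 1493 higher and 931 lower at that limit became 679 and 669 with the replicate block. Among the 19254 features above background on all 6 arrays they were 1039 and 535. Replicate numbers 1 and 4 occur in both groups but share only a number (correlations of deviations 0.06 and 0.06), and the block changed no call. The median over the list was -0.16 to -0.01 with single arrays left out and -0.13 to -0.06 otherwise.

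Of 618 alternative values for the 34 genes, 33 had the other sign, 22 of them with an array left out, and 18 genes never changed sign. With the replicate block Ccnd2 had 0.020, Mcm7 -0.10, Pcna 0.18 and Tk1 0.21. Local correction gave Cdk2 -0.045, Mcm7 -0.044, Pcna 0.24 and Chek1 0.076. Array weights gave Chek1 0.23 and Cdc20 0.079, and an offset of 32 gave Chek1 0.014. Leaving out single arrays gave ranges of -0.20 to 0.10 for Ccnd2, -0.075 to 0.18 for Ccnd3, -0.45 to 0.072 for Cdk4, -0.15 to 0.0069 for E2f1, -0.0035 to 0.52 for Cdc6, -2.90 to 0.16 for Mcm2, -0.22 to 0.15 for Mcm4, -0.041 to 0.17 for Mcm7, -0.23 to 0.20 for Pcna, -0.30 to 0.14 for Tk1, -0.38 to 0.40 for Chek1, -0.18 to 0.26 for Ccna2, -0.061 to 0.96 for Plk1, -0.20 to 0.0095 for Aurkb and -0.15 to 0.23 for Cdc20. The cause of these changes was not tested. The 21 named further genes kept their sign under every alternative. They had been picked for the smallest p of their lists in these same data, so this was largely fixed in advance.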
